A study of Mus musculus with 8 samples.

Results

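Old LINE families are here the families of long interspersed elements of the mouse genome that are not named L1Md. They were taken as every LINE row of the deposited repeat table whose family name does not begin with L1Md and whose chromosome is not a random scaffold. This gave 2044 elements in 30 families, out of 17857 elements in the table and 17079 off random scaffolds. The L1Md families, set beside them throughout, held 12895 elements. Besides L1Md_A, L1Md_T and L1Md_Gf these include 3673 L1Md_F2, 720 L1Md_F3 and 267 L1Md_F elements. By name, the old elements were 452 Lx elements in 16 families, 1508 L1_Mus elements in 4 families, 25 L1_Mur elements in 2 families, 54 L1VL elements in 3 families and 5 elements of 5 further families (L1MA4, L1MA9, L1MD3, L1ME5 and MusHAL1). The table lists long elements only, so shorter and truncated copies of these families were not analysed here.

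LINE elements copy themselves through an RNA intermediate, and a full-length copy carries its own promoter in its 5' untranslated region. The Lx families spread early in the murine lineage and the L1_Mus families later, and copies of both have since gathered mutations. Old copies that lie within genes can be transcribed along with the gene. The L1Md_A, L1Md_T and L1Md_Gf families are the young, transcribed and mobile LINEs of the mouse. DAXX is a histone chaperone that works with ATRX to deposit histone H3.3 on repeats, and DNA methylation by the DNMT enzymes silences many of them.

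The libraries were polyadenylated cytoplasmic RNA of mouse embryonic stem cells, 8 groups of 1 library each. The groups were TKO DAXX knockout, TKO, J1 DAXX knockout and J1, each grown in 2i medium and in regular medium. J1 is a wild-type embryonic stem cell line, and TKO cells lack 3 DNA methyltransferases. The 2i medium, applied for 72 hours, held 100 µg/ml vitamin C with 1 µM of PD0325901, which inhibits MEK, and 3 µM of CHIR99021, which inhibits GSK3b. DAXX status was taken from the sample titles and descriptions, because the genotype field calls the J1 DAXX-knockout samples WT and gives only the DNMT knockout for the TKO DAXX-knockout samples. The sources used here do not say how many clones stand behind each line, so a difference between lines cannot be told apart from a difference between clones. Markers of the labelled cell type were not analysed here, since the files pair no gene names with their loci. Library totals recovered from the table were 67.4 to 99.1 M reads. In bulk RNA, fewer cells that express an element and less RNA per cell cannot be told apart.

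Old LINE elements carried few reads. They held 499571 reads over the 8 libraries, 62.1% of them in L1_Mus and 37% in Lx elements, while L1VL elements held 0.666%, L1_Mur 0.135% and the other 5 elements 0.159%. No read fell on 868 of the 2044 elements (42.5%) in any library, against 111 of the 12895 L1Md elements (0.861%). Per pooled length, Lx elements stood at 0.108 RPKM (reads per kilobase and per M reads), L1_Mus elements at 0.0538 RPKM and L1VL elements at 0.0181 RPKM, against 1.08 RPKM for L1Md elements. The old elements were of like length, with a median of 5861 bases against 5902 bases for L1Md.

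The reads were concentrated on a few copies. The 10 elements with the most reads, 0.489% of the old elements, held 21.8% of the old LINE reads. Taken in the same order, 27 elements held 50% of the reads. In the L1Md families 2210 elements were needed to reach 50%. The 37 old elements with a mean RPKM of at least 1 held 60.5% of the reads. The 169 elements with the most reads held 93.0%. By mean RPKM, 169 elements reached 0.1. These were the elements tested, and they are not a fair sample of all 2044. They were 51 Lx, 113 L1_Mus, 3 L1VL, 1 L1_Mur and 1 L1MD3 elements.

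As a share of all LINE reads, old families made up 1.15% in TKO DAXX-knockout 2i (Wilson 95% interval 1.14 to 1.16%) but 0.838% in TKO regular (0.834 to 0.843%), the highest and the lowest of the 8 libraries. The intervals cover counting error only. The sum over all old LINE elements was 470 reads per M (RPM) in TKO DAXX-knockout 2i, 658 in TKO DAXX-knockout regular, 914 in TKO 2i and 1249 in TKO regular. In the J1 lines it was 821 RPM in J1 DAXX-knockout 2i, 661 in J1 DAXX-knockout regular, 632 in J1 2i and 692 in J1 regular. The highest library thus stood 2.66 times above the lowest, against 3.67 times for L1Md, and both sums had TKO regular as the highest and TKO DAXX-knockout 2i as the lowest library. The groups moved unequally, with a ratio of highest to lowest of 3.17 for Lx, 2.44 for L1_Mus, 1.92 for L1_Mur and 1.48 for L1VL.

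The elements differed by where they lie. An element was called inside where at least 90% of it was covered by 1 transcript locus that the authors assembled in any library and that was at least 2 times as long as the element. It was called touching where it overlapped a locus otherwise, and apart where it overlapped none. By this rule 170 old elements were inside, 21 touching and 1853 apart. All 868 elements with no read were apart, which is 46.8% of that class. The loci were assembled from the same RNA as the element counts, so a locus and an element within it share reads, and an element with more reads is more likely to be counted as inside.

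As a sum, reads on old elements inside loci differed little between libraries. Summed over the 170 elements they came to 167 RPM in TKO DAXX-knockout 2i, 152 in TKO DAXX-knockout regular, 180 in TKO 2i and 187 in TKO regular. The J1 lines gave 158 RPM in J1 DAXX-knockout 2i, 141 in J1 DAXX-knockout regular, 168 in J1 2i and 148 in J1 regular. All 8 values lay within a ratio of 1.33. Over the 1853 elements apart from loci the sums were 274 RPM in TKO DAXX-knockout 2i, 470 in TKO DAXX-knockout regular, 689 in TKO 2i and 995 in TKO regular. They were 611 RPM in J1 DAXX-knockout 2i, 490 in J1 DAXX-knockout regular, 435 in J1 2i and 512 in J1 regular. The highest of these stood 3.63 times above the lowest. The sums apart from loci rest largely on few copies. Of the 1853 elements, 868 had no read and 32 had a mean RPKM of at least 1. These 32 are among the 37 elements that held 60.5% of all old LINE reads.

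For L1Md elements the ratio of highest to lowest library was 3.74 apart from loci and also 3.22 inside them. Position within a locus thus went with a flat sum in the old families and not in L1Md. Single copies inside loci were not all flat. The 4 old ones with a mean RPKM of at least 1 had ratios of 2.92, 1.48, 1.66 and 3.87. The contrast between the classes was described and not tested, because a sum over the members has 1 value per group. The TKO DAXX-knockout to TKO ratio of the summed RPM was 0.397 in 2i and 0.473 in regular medium for old elements apart from loci, and the same 0.397 and 0.473 for L1Md elements apart from loci. For old elements inside loci it was 0.928 in 2i and 0.813 in regular medium. Old elements inside loci therefore made up 35.5% of the old LINE RPM in TKO DAXX-knockout 2i cells and 15.0% in TKO regular.

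**Figure D1:**
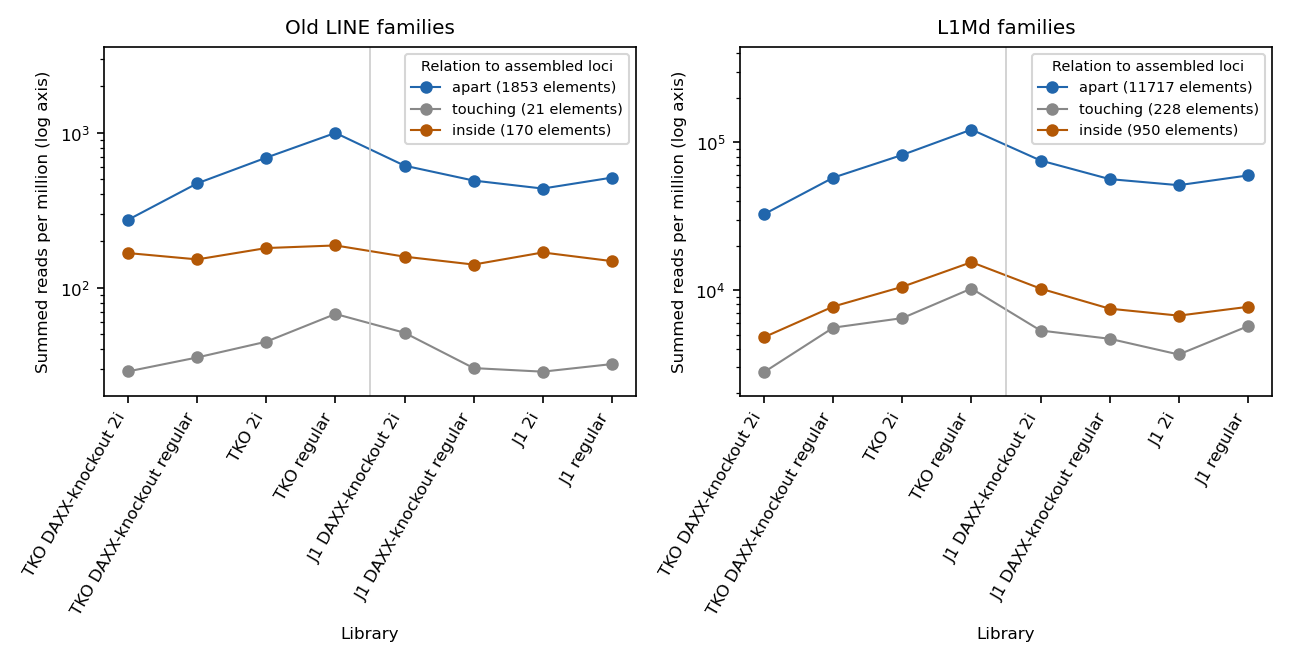
Summed RPM (log axis) of elements apart from, touching and inside assembled loci in each of the 8 libraries, for old LINE families (left) and L1Md families (right). Each point is 1 library and the lines only join points of a class. Of the 1853 old elements apart, 868 had no read and 32 had a mean RPKM of at least 1. Old elements inside loci stay between 141 and 187 RPM, while those apart run from 274 RPM in TKO DAXX-knockout 2i to 995 RPM in TKO regular, which are also the lowest and the highest library of each L1Md class.

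Old elements inside a locus had levels that went with the level of the locus. In each library between 106 and 131 old elements were inside a locus of that same library, and Spearman's rho across these elements between element RPKM and locus FPKM was 0.63 to 0.79 over the 8 libraries. Across the 540 to 683 L1Md elements inside a locus it was 0.056 to 0.22. These are descriptions across elements, with no test, and the points of a library share its depth and, within an element, the reads of element and locus. The loci around old elements were long, with a median of 113 to 148 kb in the 8 libraries, and their median FPKM was 4.35 to 6.64. Median levels of the elements in them were low, at 0.0835 to 0.117 RPKM, against 0.775 to 2.41 RPKM for L1Md elements inside loci. In each of the 8 libraries the median old element apart from loci had 0 RPKM.

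**Figure D2:**
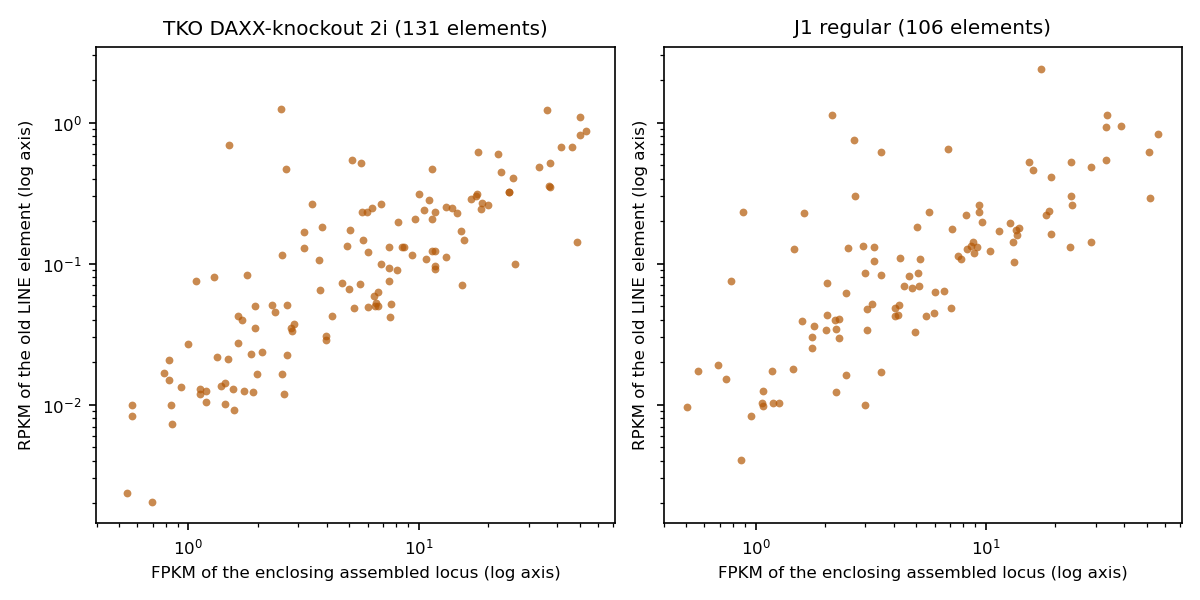
RPKM of each old LINE element inside an assembled locus against the FPKM of that locus, both on log axes, in TKO DAXX-knockout 2i (131 elements, Spearman's rho 0.79) and J1 regular (106 elements, rho 0.74). Each point is an element, and a few sit far above the rest at loci of low FPKM.

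The 10 most abundant elements were 5 Lx and 5 L1_Mus copies. In order of mean RPKM over the 8 libraries they were Lx3B at chrX:23098218-23103625 (3.01), L1_Mus2 at chr18:78893123-78899641 (2.96), Lx6 at chr12:64269334-64274694 (2.94), Lx4A at chr2:98472236-98478006 (2.87) and Lx at chr6:63617590-63623059 (2.86). They were followed by L1_Mus2 at chr7:5154221-5160079 (2.78), L1_Mus1 at chr6:27504233-27509907 (2.72), L1_Mus3 at chr5:51767041-51772413 (2.70), L1_Mus2 at chr19:31797253-31803528 (2.69) and Lx2 at chrX:69858209-69864092 (2.66). Positions are those of the files, whose notes name the build mm9, and the files do not state whether starts count from 0 or 1. Of these 10, 9 were apart from every assembled locus and the L1_Mus2 copy on chromosome 18 touched a locus. Whether the table's family name fits the whole of such a copy was not tested.

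These copies followed the L1Md families from library to library. Likeness was measured as the root mean square difference (RMS) between log2 profiles over the 8 libraries, each centred on its own mean, so that 0 is the same profile. Among the 37 elements with a mean RPKM of at least 1, 32 were highest in TKO regular and 34 lowest in TKO DAXX-knockout 2i. The L1Md_A profile was the nearest for 19 of them, at an RMS of 0.064 to 0.17, and L1Md_Gf for 11, at 0.043 to 0.18. For scale, L1Md elements of the same abundance lay at a median RMS of 0.12 from their own family, and 90% of them lay within 0.26. In all, 35 of the 37 were nearer to an L1Md profile than to no change at all, and 30 lay within that distance. The measures are unlike, since old elements were set against the nearest of 6 L1Md profiles and L1Md elements against their own. The 0.26 also pools families, with 0.18 for L1Md_A, 0.19 for L1Md_Gf and 0.50 for L1Md_T. The cause was not tested, and the sources used here do not say how the authors placed reads that fit several LINE copies.

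The Lx6 copy at chr12:64269334-64274694 stands for the 19 elements nearest to L1Md_A. It had 1.31 RPKM in TKO DAXX-knockout 2i, 2.64 in TKO DAXX-knockout regular, 4.34 in TKO 2i and 5.47 in TKO regular. It had 2.49 RPKM in J1 DAXX-knockout 2i, 2.2 in J1 DAXX-knockout regular, 2.2 in J1 2i and 2.87 in J1 regular. In both media the TKO DAXX-knockout library was below its TKO library, and the 4 J1 libraries stayed close together. Its distance to L1Md_A was 0.064.

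The Lx3C copy at chr2:41938976-41944833 was the closest of the 11 to L1Md_Gf, at 0.043. It had 1.27 RPKM in TKO DAXX-knockout 2i, 2.18 in TKO DAXX-knockout regular, 2.99 in TKO 2i and 4.98 in TKO regular. Its J1 levels were 3.51 RPKM in J1 DAXX-knockout 2i, 2.09 in J1 DAXX-knockout regular, 1.85 in J1 2i and 2.12 in J1 regular. J1 DAXX-knockout 2i stood above the other J1 libraries here, as in the summed L1Md_Gf profile and unlike L1Md_A.

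Another pattern was shared by an Lx2 copy at chrX:69858209-69864092, an L1_Mus2 copy at chr14:14472766-14479242 and an Lx4B copy at chr13:65503093-65508754. The Lx2 copy had 0.932 RPKM in TKO DAXX-knockout 2i, 1.22 in TKO DAXX-knockout regular, 1.63 in TKO 2i and 3.20 in TKO regular. It had 4.14 RPKM in J1 DAXX-knockout 2i, 4.66 in J1 DAXX-knockout regular, 2.51 in J1 2i and 3.01 in J1 regular. All 3 were highest in J1 DAXX-knockout regular, and they lay 0.086 to 0.17 from each other but 0.53 to 0.61 from the nearest L1Md family sum. Within 0.26 of their mean profile lay 308 of the 2888 L1Md_T elements with a mean RPKM of at least 1 (10.7%) and 1 of the 2167 L1Md_A elements. The profile was chosen after its values were seen.

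Of the 4 abundant elements inside loci, 2 were nearer to no change than to any L1Md family. The L1_Mus1 copy at chr2:20712302-20718321, in a locus of up to 56.5 FPKM, had 1.23 RPKM in TKO DAXX-knockout 2i, 1.12 in TKO DAXX-knockout regular, 1.40 in TKO 2i and 1.14 in TKO regular. In J1 lines it had 1.66 RPKM in J1 DAXX-knockout 2i, 1.31 in J1 DAXX-knockout regular, 1.42 in J1 2i and 1.13 in J1 regular. Its highest and lowest library differed by a ratio of 1.48, and the groups overlapped in every contrast when unpaired. Paired by line, its 2i library lay above the regular one in 4 of 4 lines. The L1_Mus1 copy at chr1:15812747-15818083, in a locus of up to 75 FPKM, spanned a ratio of 1.66.

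**Figure D3:**
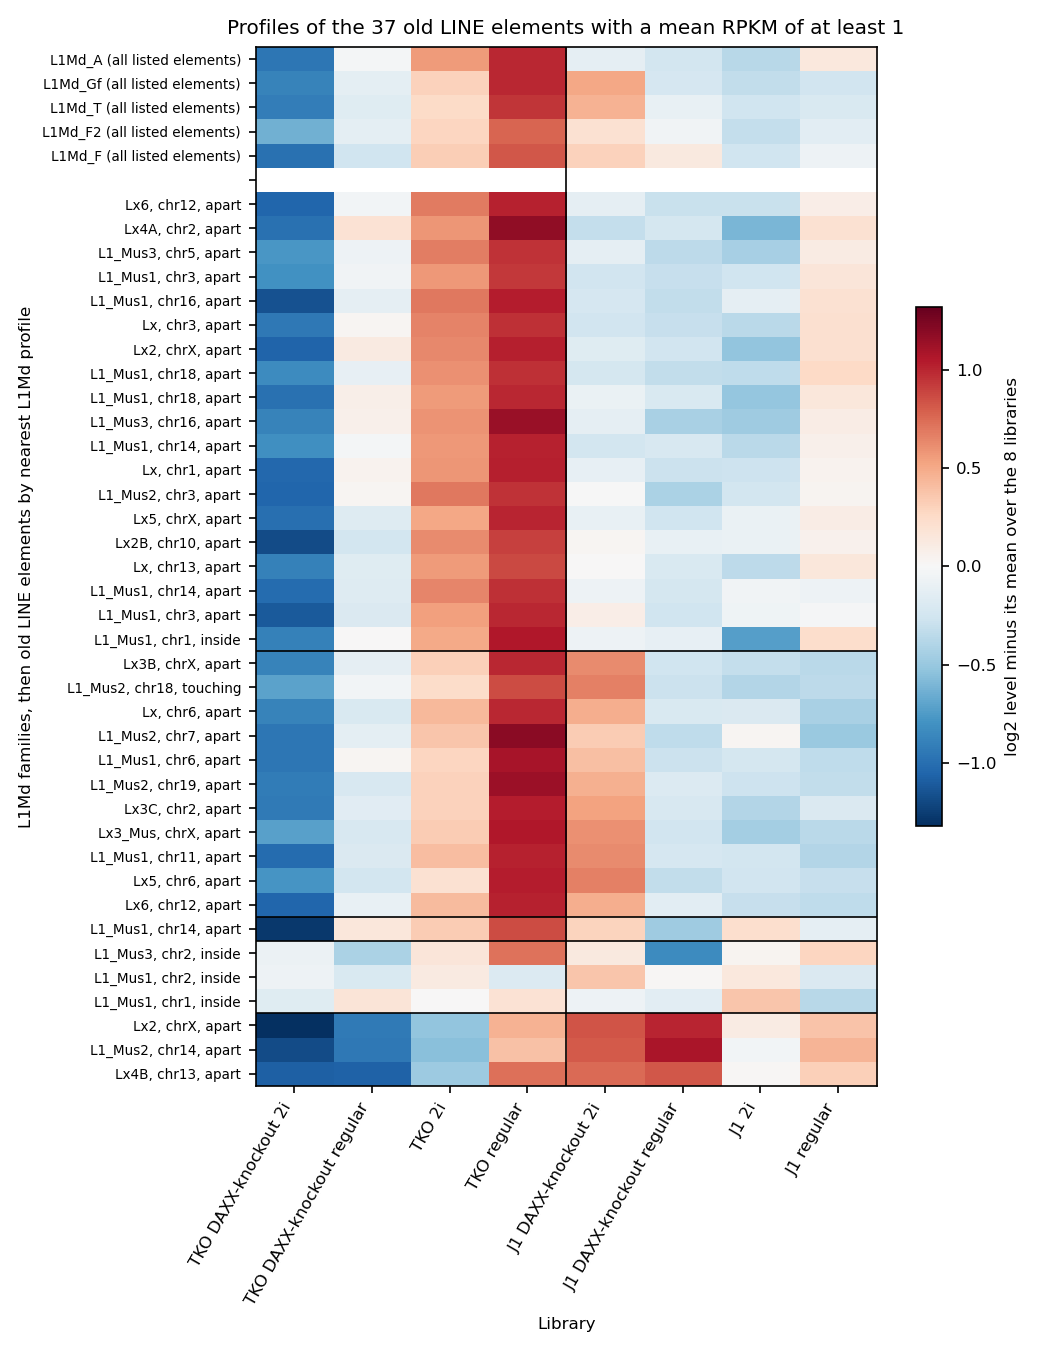
Log2 level in each library minus the mean over the 8 libraries (colour) for 5 L1Md family sums (top rows) and the 37 old LINE elements with a mean RPKM of at least 1, grouped by the nearest L1Md profile and labelled by family, chromosome and relation to assembled loci. From the top, 19 elements lie nearest to L1Md_A, 11 to L1Md_Gf, 1 to L1Md_T, 3 inside loci to L1Md_F2 and 3 to L1Md_F, the last being highest in J1 DAXX-knockout regular.

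The design asks what the loss of DAXX, the loss of DNMT and the medium do to old LINE RNA, and whether the loss of DAXX acts alike in TKO and J1. With 1 library per group, each factor was compared over the libraries that differ in it, with edgeR's quasi-likelihood test on counts and Benjamini-Hochberg adjustment over all repeats tested, at 0.05. The p-values rest on the spread that the model leaves over the 8 libraries and do not measure the spread between cultures or lines of a genotype.

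With DAXX knocked out in TKO cells, many old elements apart from loci fell per M reads and few inside them did. Per M reads, 70 of the 169 tested old elements fell and 0 rose, where 56.5% of all 11322 tested repeat elements were called lower and 3.42% higher. Among elements apart from loci 61 of 88 fell, with a median log2 change of −1.22, and among elements inside loci 6 of 70 fell, with a median of −0.02. Of the 11 touching elements 3 fell, with a median of −0.72. The median over all tested elements was −1.18, and over L1Md it was −1.20 apart from loci and −1.10 inside them. Of the L1Md elements, 5368 of 8393 apart from loci and 359 of 849 inside them were called lower.

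By name, 22 of 32 Lx and 39 of 55 L1_Mus elements apart from loci fell, with medians of −1.23 and −1.22. Inside loci 0 of 18 Lx and 6 of 50 L1_Mus elements fell, with medians of 0.07 and −0.04, while 0 of 3 L1VL elements were called, 2 of them inside loci and 1 touching. The largest falls beside a copy that reached 0 were those of L1_Mus3 at chr3:6363758-6370597 and L1_Mus1 at chr4:24068453-24074630. The L1_Mus3 copy had 0.0480 RPKM in TKO DAXX-knockout 2i cells and 0.0824 in TKO DAXX-knockout regular, against 0.232 in TKO 2i and 0.354 in TKO regular (log2 change −2.17, edgeR adjusted p 0.00936). Of the 88 elements apart from loci, 87 had a change below 0, against 8367 of 8393 L1Md elements apart from loci. The exception among the 88 was an L1_Mus2 copy at chr3:5746273-5752571 (log2 0.48, edgeR adjusted p 0.416).

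The 6 called elements inside loci were all L1_Mus copies. The most abundant, L1_Mus1 at chr1:16442973-16448572, had 0.520 RPKM in TKO DAXX-knockout 2i cells and 0.968 in TKO DAXX-knockout regular, against 1.37 in TKO 2i and 2.01 in TKO regular (log2 −1.22, edgeR adjusted p 0.0469). Its profile lay 0.15 from L1Md_A. Another, L1_Mus4 at chr8:42037315-42042944, had 0.469 RPKM in TKO DAXX-knockout 2i cells and 0.954 in TKO DAXX-knockout regular, against 1.24 in TKO 2i and 1.71 in TKO regular (log2 −1.08, edgeR adjusted p 0.0491).

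These counts hold per M reads and under few settings. Other scalings set the typical repeat near 0, which moves the median change of all elements by log2 1.14 under TMM, 1.14 under median-of-ratios scaling and 1.16 when scaled to L1Md reads. Under these scalings 0 of 88 elements apart from loci were called either way. Inside loci 9 of 70 were called higher under TMM and 12 of 70 under each of the other scalings, and 0 lower. The share of all tested elements called under these scalings is not given here, so these counts cannot be called particular to old elements. The median of elements inside loci was −0.02 per M reads and 1.15 under TMM, and that of elements apart from loci was −1.22 per M reads and −0.07 under TMM. A scaling moves all elements by about the same amount, so it leaves the difference between the classes nearly as it was. Most adjusted p-values lay just under the threshold, and leaving out J1 regular gave 0 calls among the 169, leaving out J1 2i, TKO 2i or TKO regular 1 each, TKO DAXX-knockout 2i 2 and TKO DAXX-knockout regular 29. Without J1 DAXX-knockout 2i there were 97 and without J1 DAXX-knockout regular 98.

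**Figure D4:**
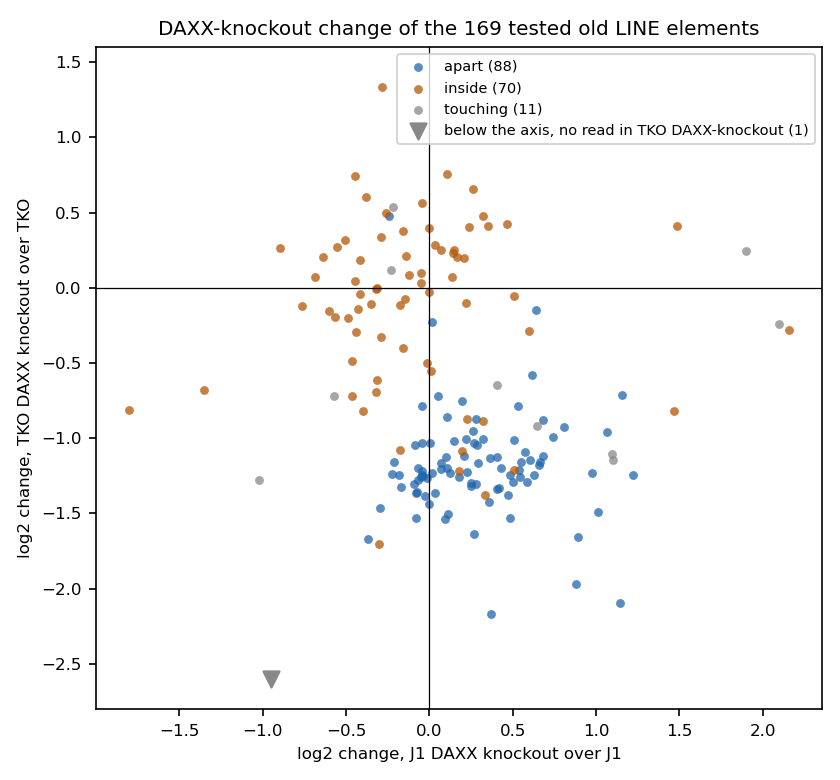
Log2 change on DAXX knockout in TKO (vertical axis) against that in J1 (horizontal axis) for the 169 tested old LINE elements, in RPM terms and coloured by relation to assembled loci. Elements apart from loci cluster near −1.22 in TKO and 0.26 in J1, those inside near −0.02 and −0.15, and under TMM or L1Md scaling the whole cloud moves up by over 1 in TKO. The triangle marks a copy with no read in either TKO DAXX-knockout library, drawn at the axis limit.

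Summed by family, none of the old families passed the edgeR test for the DAXX knockout in TKO. Of 19 old families tested, with a mean of at least 1 RPM, 0 were called lower and 0 higher, where 2.27% of the 44 tested families were called lower and 0% higher. An unadjusted p under 0.05 was reached by 15 of the 19, and by 24 of all 44 families. DESeq2 called 16 of the 19 lower, and its share over all 44 is not given here. The lowest adjusted p of the 19 with edgeR was 0.0691. Per M reads the log2 changes of the 19 ran from −1.42 to 0.09 with a median of −1.04, against −0.93 over all 44 families. When scaled to L1Md reads the change was above 0 for 14 of the 19, so the direction of a family depends on the scaling.

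The lowest values among the families were those of Lx families. Lx2B, the lowest at log2 −1.42 (edgeR adjusted p 0.0691), had 3.77 RPM in TKO DAXX-knockout 2i cells and 7.70 in TKO DAXX-knockout regular, against 13.2 in TKO 2i and 16.7 in TKO regular. Its leading copy held 81.9% of its reads. Similar dominance was seen in Lx4A (99.9% of reads on 1 copy, log2 −1.25), Lx3B (99.3%, −1.14), Lx4B (94.4%, −1.21), Lx3C (86.0%, −1.05) and Lx7 (75.3%, −1.27), so these families stand for the copy that leads them. The other Lx values were −1.32 for Lx6, −1.30 for Lx2A1, −1.08 for Lx5, −1.04 for Lx2, −0.97 for Lx3_Mus, −0.95 for Lx and −0.86 for Lx9. None of these passed the edgeR test.

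The L1_Mus families had changes from −0.98 to −0.59. L1_Mus1, the largest with 704 elements, had 158 RPM in TKO DAXX-knockout 2i cells and 212 in TKO DAXX-knockout regular, against 304 in TKO 2i and 387 in TKO regular (log2 −0.90, edgeR adjusted p 0.0747). L1_Mus2 had a log2 change of −0.98, L1_Mus3 of −0.74 and L1_Mus4 of −0.59, and none passed the test. The share of a family's reads on elements inside loci was 9.08% in L1_Mus2, 25.7% in L1_Mus1, 45.1% in L1_Mus3 and 69.9% in L1_Mus4. Across these 4 families the change was smaller where that share was larger, which is a description of 4 values.

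Per M reads the L1VL families had changes nearer to 0 than any L1_Mus family, narrowly so for L1VL4 (−0.52) beside L1_Mus4 (−0.59). Leaving out each library in turn gave −0.82 to −0.17 for L1VL4 and −0.63 to −0.55 for L1_Mus4, so their order is not firm. L1VL2 had 2.86 RPM in TKO DAXX-knockout 2i cells and 2.13 in TKO DAXX-knockout regular, against 1.99 in TKO 2i and 2.68 in TKO regular, so the groups overlapped (log2 0.09, edgeR adjusted p 0.832). Its leading copy, which lay inside a locus, also held 81.9% of its reads. L1VL4 had 1.80 and 1.76 RPM in the TKO DAXX-knockout libraries in 2i and regular medium, against 2.26 and 2.80 in TKO (log2 −0.52, edgeR adjusted p 0.312), and 53.1% of its reads lay on a copy inside a locus.

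In J1 cells the knockout of DAXX changed few old elements. Of the 169, 4 rose and 1 fell, where 7.81% of all tested elements were called higher and 0.0177% lower. Before adjustment, 12 of the 169 had a p under 0.05, against 1066 of all 11322 tested elements. All 5 called elements were L1_Mus copies, and none was apart from loci. The median log2 change was 0.26 apart from loci and −0.15 inside them, against 0.24 over all tested elements. Under the other scalings the median apart from loci lay near 0, at −0.01 with TMM and −0.02 when scaled to L1Md reads. None of the 19 families passed (0 of 19 higher or lower, with 0% of the 44 called either way, 0 at an unadjusted p under 0.05 and 0 with DESeq2), and their changes ran from −0.49 to 0.60.

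L1_Mus3 at chrX:102484691-102490747, inside a locus of at most 0.730 FPKM, had the largest rise. It had 0.450 RPKM in J1 DAXX-knockout 2i and 0.202 in J1 DAXX-knockout regular, against 0.0833 in J1 2i and 0.0623 in J1 regular (log2 2.16, edgeR adjusted p 0.000163). In TKO cells it had 0.228 and 0.581 RPKM in the DAXX-knockout libraries in 2i and regular medium, against 0.499 and 0.490 in TKO, and those groups overlapped. L1_Mus3 at chr11:29480233-29485983 rose by log2 2.09 (edgeR adjusted p 0.00425) and L1_Mus1 at chr1:11225208-11231380 by 1.47 (edgeR adjusted p 0.019). L1_Mus1 at chr8:4756080-4762072, inside a locus of up to 34.0 FPKM, had 0.0781 RPKM in J1 DAXX-knockout 2i and 0.0295 in J1 DAXX-knockout regular, against 0.230 in J1 2i and 0.141 in J1 regular (log2 −1.80, edgeR adjusted p 0.0293).

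The DAXX change in TKO differed from that in J1 for 5 old elements, all with the lower change in TKO, where 0.503% of all tested elements were called lower and 0% higher. An unadjusted p under 0.05 was reached by 57 of the 169, against 5420 of all 11322 tested elements. L1_Mus1 at chr4:24068453-24074630 had 0.104 RPKM in TKO DAXX-knockout 2i cells and 0.0956 in TKO DAXX-knockout regular, against 0.340 in TKO 2i and 0.521 in TKO regular. In J1 it ran the other way, with 0.323 RPKM in J1 DAXX-knockout 2i and 0.219 in J1 DAXX-knockout regular, against 0.106 in J1 2i and 0.141 in J1 regular (log2 difference −3.24, edgeR adjusted p 0.00314). The knockout and control libraries did not overlap in TKO or in J1. Under TMM, median-of-ratios and L1Md scaling 0 of the 169 were called for this difference, and the median over all tested elements moved by log2 1.41, 1.39 and 1.44. Among families 0 of 19 were called (0% of the 44 either way). Before adjustment, 12 of the 19 had a p under 0.05, as did 19 of all 44 families. DESeq2 called 15 of the 19 lower, and its share over all 44 is not given here.

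Over all 4 DAXX pairs, 1 old element was called lower and 0 higher, where 0.0618% of tested elements were called lower and 6.70% higher. Before adjustment, 5 old elements had a p under 0.05, against 949 of all 11322 tested elements. The called element was L1_Mus3 at chr8:131677827-131683695, which touched an assembled locus. It had 0 reads in both TKO DAXX-knockout libraries, against 45 reads (0.104 RPKM) in TKO 2i and 113 reads (0.194 RPKM) in TKO regular. A count of 0 allows up to 3 reads per library, which puts the TKO libraries at least 15.5-fold higher in 2i and at least 28.3-fold higher in regular medium. In J1 it had 0.0705 RPKM in J1 DAXX-knockout 2i and 0.161 in J1 DAXX-knockout regular, against 0.159 in J1 2i and 0.271 in J1 regular. The edgeR adjusted p was 0.0169 over the 4 pairs and 0.000501 for the difference between TKO and J1. None of the 19 families passed over the 4 pairs (0 higher, 0 lower, 0% of the 44 called either way, 0 with DESeq2 and 0 at an unadjusted p under 0.05).

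Few old elements passed the test for the loss of DNMT. Over the 4 TKO and J1 pairs, 1 of 169 old elements rose and 2 fell, where 0.583% of tested elements were called higher and 0.0265% lower. Before adjustment, 8 of the 169 had a p under 0.05, against 232 of all 11322 tested elements. The median log2 change of the old elements was 0.19, against 0.17 over all tested elements. The riser, Lx9 at chr16:16616319-16621798, touched a locus and had 0.271 RPKM in TKO DAXX-knockout 2i, 0.647 in TKO DAXX-knockout regular, 0.440 in TKO 2i and 1.67 in TKO regular. In J1 it had 0.272 RPKM in J1 DAXX-knockout 2i, 0.108 in J1 DAXX-knockout regular, 0.0515 in J1 2i and 0.188 in J1 regular (log2 2.03, edgeR adjusted p 0.0197). The DAXX-knockout pair in 2i was level, and the other 3 TKO libraries lay above their J1 libraries.

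The Lx9 family, in which that copy held 75.8% of the reads, had a log2 change of 1.40 (edgeR adjusted p 0.0539) and was called higher by DESeq2 and by limma at a pseudocount of 0.1, but not by limma at a pseudocount of 1. It was the only one of the 19 families that DESeq2 called for DNMT, while edgeR called 0 higher and 0 lower, where 11.4% of the 44 families were called higher and 0% lower. The 2 elements that fell were the L1_Mus3 copy on chromosome 8 and L1_Mus4 at chr14:53865069-53870403. The L1_Mus3 copy is the one with 0 reads in both TKO DAXX-knockout libraries. With DAXX intact its TKO and J1 levels were closer, at 0.104 RPKM in TKO 2i against 0.159 in J1 2i. In regular medium they were 0.194 RPKM in TKO against 0.271 in J1. The L1_Mus4 copy had 0.00492 RPKM in TKO DAXX-knockout 2i, 0.0252 in TKO DAXX-knockout regular, 0.0305 in TKO 2i and 0.00568 in TKO regular. It had 0.0755 RPKM in J1 DAXX-knockout 2i, 0.433 in J1 DAXX-knockout regular, 0.0195 in J1 2i and 0.224 in J1 regular (log2 −2.95, edgeR adjusted p 0.00215). Its TKO 2i library lay above J1 2i, so the groups overlapped. Its mean of 0.102 RPKM passed the filter of 0.1 only through J1 DAXX-knockout regular and J1 regular. The call of a fall in TKO is therefore not free of the filter.

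The medium changed 1 old element in the additive model and 9 when each line had its own level. L1_Mus1 at chr16:9231335-9237490, which touched a locus, rose in 2i, where 0.495% of all tested elements were called higher and 4.72% lower. Before adjustment, 9 of the 169 had a p under 0.05 in the additive model, against 1010 of all 11322 tested elements. In 2i the L1_Mus1 copy had 0.774 RPKM in TKO DAXX-knockout, 0.722 in TKO, 0.932 in J1 DAXX-knockout and 0.157 in J1 cells. In regular medium it had 0.111 RPKM in TKO DAXX-knockout, 0.0853 in TKO, 0.0349 in J1 DAXX-knockout and 0.0233 in J1 cells. All 4 libraries in 2i lay above all 4 in regular medium, with a 10.8-fold change (log2 3.43, edgeR adjusted p 5.14e-07). Within J1 cells it was also called higher on DAXX knockout (log2 1.90, edgeR adjusted p 0.00207). In 2i it had 527 reads in J1 DAXX-knockout against 65 in J1. In regular medium it had 17 reads against 11, too few to show a rise. J1 DAXX-knockout regular also lay below J1 2i, so these groups overlapped when unpaired.

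Old elements otherwise split by position in the medium contrast too. The median log2 change in 2i was 0.22 for the 70 elements inside loci and −0.23 for the 88 apart, against −0.25 over all tested elements, and in the additive model 0 in either class were called. The media pair within each of the 4 lines. With a level for each line, edgeR called 5 of the 169 higher in 2i and 4 lower, where 1.02% of all tested elements were called higher and 6.22% lower. Inside loci 3 of 70 were higher and 1 lower, among touching elements 2 of 11 were higher and 2 lower, and apart from loci 1 of 88 was lower. The element apart was L1_Mus4 at chr14:53865069-53870403, which passed the filter only through regular-medium libraries of J1 lines. The 3 that were higher inside loci lay above regular medium in all 4 lines. One of them, Lx at chr6:30791902-30796947, had 0.819 RPKM in TKO DAXX-knockout 2i, 0.637 in TKO 2i, 0.725 in J1 DAXX-knockout 2i and 1.00 in J1 2i. In regular medium it had 0.551 RPKM in TKO DAXX-knockout, 0.318 in TKO, 0.245 in J1 DAXX-knockout and 0.294 in J1 cells (log2 1.22, edgeR adjusted p 0.00243). Under TMM the medians were 0.55 inside and 0.01 apart, and when scaled to L1Md reads 0.59 inside and 0.04 apart. Of the 19 families, 0 were called higher and 0 lower, where 4.55% of the 44 were called higher and 11.4% lower, and 0 had an unadjusted p under 0.05 or passed with DESeq2. Their changes ran from −0.60 for Lx9 to 0.17 for L1VL4.

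The 11 families below 1 RPM add little. L1ME5 and Lx8 had 0 reads in all 8 libraries, and MusHAL1 had reads in TKO regular only, at 0.010 RPM. The highest of the others were L1_Mur1 at a mean of 0.948 RPM, Lx2A at 0.935, L1MD3 at 0.813 and L1VL1 at 0.748. The L1_Mur1 family was highest in J1 DAXX-knockout regular at 1.39 RPM and J1 regular at 1.28 RPM, with 0.727 to 0.827 RPM in the 4 TKO libraries. These families were not tested.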

How the data were processed

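The deposited repeat table gives, per the file headers, the read count and the RPKM (reads per kilobase per M reads) of each listed element in each library. The authors' FPKM of loci assembled per library came as separate files. TopHat, Bowtie2 2.2.4, Cufflinks, Cuffdiff and mm9 are named in the submitters' processing notes. The sources used here name neither the counter nor how multi-mapping reads were handled. Library totals were recovered from counts and RPKM, and RPM values divide reads by it in M. Counts were tested with edgeR 4.0.16 (quasi-likelihood, R 4.3.3) without further scaling, with DESeq2 1.42.0 and limma 3.58.1 (on log2 of RPKM, or RPM for families, plus 0.1 or 1) as alternatives. DAXX, DNMT and medium were additive terms, and DAXX by DNMT was added for the values within J1, within TKO and their difference. For the medium, a level for each line was an alternative. A family was tested from a mean of 1 RPM upward, and an element from a mean of 0.1 RPKM. Adjustment was over all 44 families or 11322 elements tested, two-sided. The tests were run on simulated data first. Members and lists were chosen with earlier results of these data known. Named elements are the 10 of highest mean RPKM and, per contrast, up to 3 calls each way with the largest change and the same sign in every pair. Others were chosen after their values were seen. Sequences were not printed, since the genome at hand is of another build. Python 3.11.15, pandas 2.3.3 and scipy 1.17.1 were used.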

Additional observations from a re-analysis of the deposited data

Results flagged for a closer look

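The DAXX-knockout change differed between TKO and J1 for 5 old LINE elements by the interaction test of edgeR per M reads. The adjusted p was 0.000501 for L1_Mus3 at chr8:131677827-131683695, which had 0 RPKM in both TKO DAXX-knockout libraries, against 0.104 in TKO 2i and 0.194 in TKO regular. It was 0.00314 for L1_Mus1 at chr4:24068453-24074630, lower in both TKO pairs and higher in both J1 pairs. For Lx at chr2:37094333-37099377 the adjusted p was 0.0217, with 0.200 RPKM in TKO DAXX-knockout 2i cells and 0.370 in TKO DAXX-knockout regular, against 0.661 in TKO 2i and 0.902 in TKO regular. The same Lx copy had 0.585 RPKM in J1 DAXX-knockout 2i and 0.693 in J1 DAXX-knockout regular, against 0.241 in J1 2i and 0.415 in J1 regular. For L1_Mus2 at chr8:53092464-53098830 the adjusted p was 0.0249, with 0.0577 and 0.108 RPKM in the TKO DAXX-knockout libraries in 2i and regular medium, against 0.277 and 0.353 in TKO. In J1 that copy had 0.226 and 0.230 RPKM in the DAXX-knockout libraries, against 0.0886 and 0.172 in J1. The adjusted p for L1_Mus3 at chrX:102484691-102490747, the riser in J1 described above, was 0.0384. The changes of the last 4 were −3.24, −2.50, −2.85 and −2.44 on the log2 scale as a difference of TKO minus J1. None of the 5 was called for this difference under TMM, median-of-ratios or L1Md scaling.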

How the results depend on the processing

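No replicate block could be fitted, since each group has 1 library. The media pair by line, and the fit with a level for each line is given with the medium. Counts of called old LINE elements are given below beside the reported count. For DAXX (1 reported) they were 4 under TMM, 3 under median-of-ratios scaling, 3 scaled to L1Md reads, 0 with limma at either pseudocount, 3 with no filter and 0 with the stricter filter. For DNMT (3 reported) they were 5 under median-of-ratios scaling, 0 with DESeq2, 1 and 0 with limma at pseudocounts of 0.1 and 1, 8 with no filter and 0 with the stricter filter. For the medium (1 reported) they were 3 with DESeq2, 0 with limma at a pseudocount of 1, 15 with no filter, 0 with the stricter filter and 9 with a level for each line. For DAXX in J1 (5 reported) they were 3 under TMM, 0 with limma at either pseudocount, 10 with no filter and 0 with the stricter filter.

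For DAXX in TKO (70 reported) the counts were 11 under TMM, of which 10 were higher, 14 under median-of-ratios scaling and 14 scaled to L1Md reads, of which 13 each were higher. They were 26 with limma at a pseudocount of 1, 40 with no filter and 0 with the stricter filter. For DAXX by DNMT (5 reported) they were 0 under each other scaling, 3 with DESeq2, 0 with limma at either pseudocount, 9 with no filter and 0 with the stricter filter. In DAXX in TKO, elements apart from loci (61 reported) gave 0 under each other scaling, 24 with limma at a pseudocount of 1, 32 with no filter and 0 with the stricter filter. Elements inside loci (6 reported, all lower) gave 9 under TMM, 12 under median-of-ratios and 12 under L1Md scaling, all higher. They gave 2 with limma at a pseudocount of 1, 2 with no filter and 0 with the stricter filter. These counts by class, and the ratios of highest to lowest library below, were added after the data were seen.

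Families (0 reported in every contrast) gave 2, 3 and 1 for DNMT under TMM, median-of-ratios and L1Md scaling, and 1 with DESeq2 and with limma at a pseudocount of 0.1. DESeq2 called 16 for DAXX in TKO and 15 for DAXX by DNMT.

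Leaving out each library in turn gave 0 to 39 elements for DAXX, 0 to 5 for DNMT, 1 to 6 for the medium, 0 to 25 for DAXX within J1, 0 to 98 within TKO and 0 to 93 for DAXX by DNMT. It gave 0 to 81 apart from and 0 to 11 inside loci for DAXX in TKO. Families ranged from 0 to 1 for DNMT and the medium, and from 0 to 15 for DAXX in TKO and for DAXX by DNMT. The highest counts came without J1 DAXX-knockout 2i (39 for DAXX) or without J1 DAXX-knockout regular (25 within J1, 98 within TKO, 93 for DAXX by DNMT).

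In DAXX in TKO, the log2 change of a family turned above 0 under TMM for L1VL4 (0.32), L1_Mus3 (0.078) and L1_Mus4 (0.23), and under median-of-ratios scaling for L1VL4 (0.38), L1_Mus3 (0.15), L1_Mus4 (0.30) and Lx9 (0.047). Scaled to L1Md reads it was above 0 for L1VL4 (0.68), L1_Mus1 (0.28), L1_Mus2 (0.20), L1_Mus3 (0.45), L1_Mus4 (0.61), Lx (0.22), Lx2 (0.14), Lx3B (0.028), Lx3C (0.13), Lx3_Mus (0.22), Lx4B (0.061), Lx5 (0.092) and Lx9 (0.34). L1VL2 ranged from −0.20 to 0.40 as each library was left out. None of the 13 calls of named elements turned round in 191 alternatives, and 83 of these lost the call.

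The share of LINE reads in old families was 0.640% in TKO regular and 0.963% in TKO DAXX-knockout 2i without the 10 elements of highest mean RPKM, and 0.808% and 0.832% over elements apart from loci. Without a minimum locus length, the ratio of highest to lowest library was 1.39 for old elements inside loci, and without the 10 elements it was 3.53 for those apart. The number inside was 170 with 50% covered, 173 with no minimum length and 154 with loci of at least 1 FPKM. Elements below a mean RPKM of 0.1 were left out of the reported tests by a chosen filter. The counts with no filter include those that had a read. The cause of lost calls was not tested beyond the alternatives named.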

Other observations

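The 37 old elements with a mean RPKM of at least 1 lay 3.1 to 450 kb from the nearest listed L1Md element, with a median of 41.1 kb, against 35.9 kb for all 2044 and 32.5 kb for the 868 with no read. The X chromosome held 295 of the 2044 (14.4%) and 5 of the 37. By name group, 246 of 1508 L1_Mus elements (16.3%) and 40 of 452 Lx elements (8.85%) lay on it, against 1423 of 12895 L1Md elements (11.0%). These are descriptions with no test.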
